A study of Salmo salar with 26 samples.

Results

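The transcripts described here are 4 contigs of the Atlantic salmon lens, 4 of the 26681 unigenes (contigs assembled from the reads) in the deposited table. They were Unigene8559, named for glycylpeptide N-tetradecanoyltransferase 1, CL99.Contig1, named galectin-3-like, Unigene98, named for tyrosine phosphatase type IVA 1, and Unigene13732, named for copine-2. They were chosen by name because they were higher in lenses with cataract in these same libraries. Their cataract differences are therefore given as a description with no test. Tests are kept for measures that the choice did not use directly: ploidy, body weight, relations among lenses of 1 cataract state, and other contigs of the same names. The ploidy comparison of cataract lenses uses values that entered the choice, which can fix it in part. The same holds for the difference between the triploid and the diploid cataract difference.

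The lenses came from 26 fish (Salmo salar), of which 6 were diploid without cataract (2N-), 6 diploid with cataract (2N+), 6 triploid without cataract (3N-) and 8 triploid with cataract (3N+). The labels name no treatment other than sorting by ploidy and give no score for the cataracts. Poly(A) RNA of each lens was sequenced, and the libraries held 9.76 M to 11.95 M counted reads. The 2N- fish weighed 110 to 345 g and the 2N+ fish 460 to 840 g, so that body weight and cataract cannot be told apart in the diploids, whereas the triploid groups overlapped (280 to 700 g in 3N- and 270 to 885 g in 3N+). In a whole lens, fewer cells of a type and less RNA per cell cannot be told apart.

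A cataract is a loss of transparency of the lens, which is built of crystallin-filled fibre cells under a single layer of epithelium. N-myristoyltransferases attach the fatty acid myristate to the amino-terminal glycine of proteins, which helps these proteins bind to membranes. Galectin-3 binds galactose-bearing sugars on glycoproteins, inside and outside the cell. Tyrosine phosphatases of the type IVA family carry a prenyl anchor and bind CNNM magnesium transport proteins in mammals, and copines are calcium-dependent phospholipid-binding proteins. Ictacalcin, with which the 4 contigs were compared, is a calcium-binding protein of the S100 family known from fish epithelia.

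The contigs differed in how firmly they carry their names. Unigene98 had a length of 2154 bases and matched a salmon protein with an expectation value of 1.23e-97. CL99.Contig1 had 1195 bases and matched a tilapia protein (1.31e-86), and Unigene13732 had 585 bases and matched a zebrafish protein (1.51e-61). Unigene8559 had 713 bases and matched its tilapia protein with 4.59e-33, whereas CL533.Contig2 (3195 bases) and CL533.Contig1 (2100 bases) matched a protein of the same name with a value of 0. The short contig is therefore called the short N-myristoyltransferase contig here.

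The short N-myristoyltransferase contig had the largest cataract differences of the 4. Its level, in reads scaled to contig length and library size (RPKM), had a minimum, median and maximum of 3.08, 5.21 and 9.53 in the 2N- lenses and of 10.9, 16.6 and 24.3 in the 2N+ lenses. It was 4.24, 6.00 and 15.3 RPKM in the 3N- lenses and 16.3, 27.7 and 49.2 RPKM in the 3N+ lenses. Every cataract lens lay above every clear lens of its ploidy, 6 of 6 in diploids and 8 of 8 in triploids. The highest clear lens, 3N- replicate 1 at 15.3 RPKM, stood close under the lowest triploid cataract lens. After scaling the libraries to each other by the trimmed mean of M values (TMM), the log2 difference was 1.33 ± 0.36 (SE) in diploids and 1.96 ± 0.33 in triploids. On the scaled values 5 of 6 diploid cataract lenses and 8 of 8 triploid ones stayed above all clear lenses.

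The galectin-3-like contig was low in clear lenses and spread widely in cataract lenses. It was 2.15, 3.74 and 4.996 RPKM (minimum, median and maximum) in 2N- and 2.34, 9.26 and 18.2 RPKM in 2N+. In triploids it was 2.25, 2.76 and 3.97 RPKM without cataract and 4.51, 6.99 and 16.9 RPKM with cataract. All 8 triploid cataract lenses were above the clear ones, and so were 5 of 6 diploid ones. The remaining diploid lens, 2N+ replicate 4, had 2.34 RPKM, inside the clear range, and was also the 2N+ lens with the least ictacalcin (5.95 RPKM). The log2 difference on the scaled values was 0.87 ± 0.31 in diploids and 1.32 ± 0.29 in triploids. On the scaled values 5 of 6 and 7 of 8 cataract lenses were above all clear ones.

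Tyrosine phosphatase IVA 1 was the most abundant of the 4 and varied least within a group. It was 18.7, 21.5 and 24.6 RPKM in 2N-, and 29.7, 41.6 and 62.1 RPKM in 2N+. It was 22.9, 26.0 and 28.8 RPKM in 3N-, and 24.5, 31.4 and 42.2 RPKM in 3N+. The diploid groups did not overlap, and 7 of 8 triploid cataract lenses were above all clear ones. On the scaled values the triploid count was 4 of 8, and the log2 difference was 0.65 ± 0.15 in diploids and 0.27 ± 0.14 in triploids. The scaling matters for this contig: the mean TMM factor was 0.944 in 2N- and 1.16 in 2N+, and with RPKM as deposited the diploid difference was 0.94.

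Copine-2 was the least abundant of the 4, with 6 to 79 reads per lens, so that its lowest values rest on few reads. It was 0.942, 1.62 and 2.49 RPKM in 2N- and 2.72, 4.42 and 11.4 RPKM in 2N+. It was 1.57, 2.29 and 2.74 RPKM in 3N- and 1.32, 4.003 and 12.6 RPKM in 3N+. All 6 diploid cataract lenses were above the clear ones, as were 6 of 8 triploid ones, while 3N+ replicate 2, at 1.32 RPKM, lay below every 3N- lens. The log2 difference was 1.16 ± 0.36 in diploids and 0.85 ± 0.33 in triploids, and on the scaled values 6 of 6 and 5 of 8 cataract lenses were above all clear ones.

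**Figure D1:**
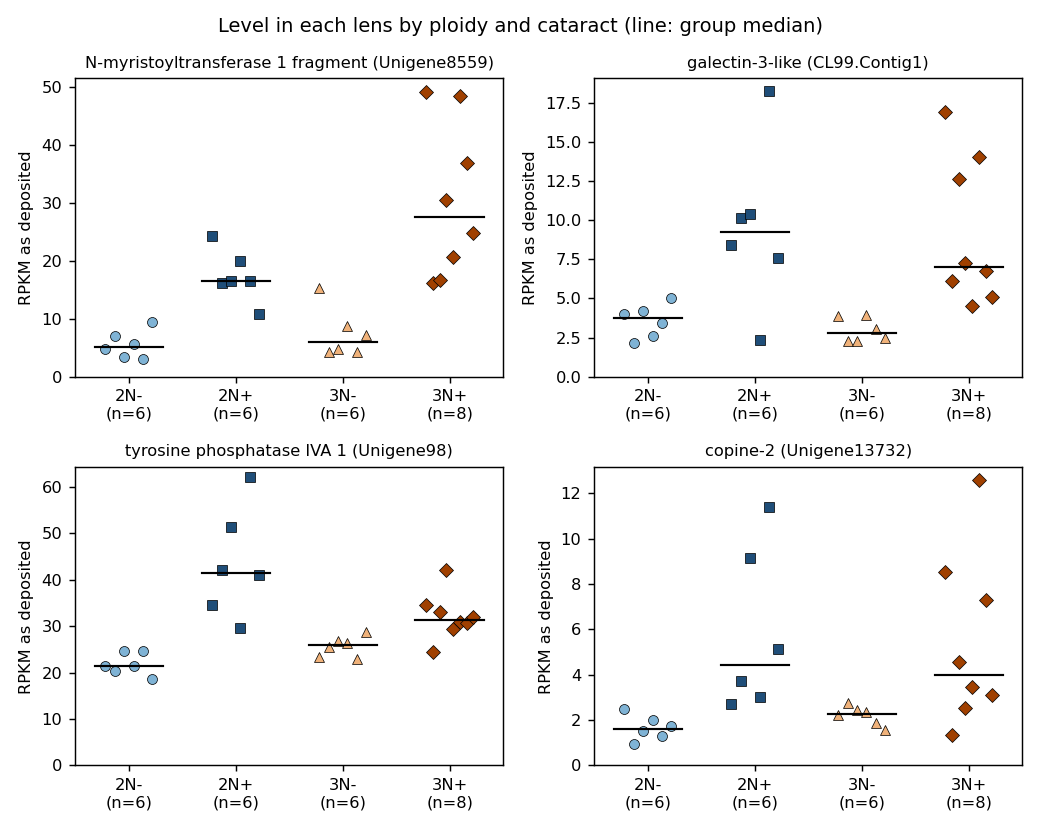
Level of the 4 contigs (RPKM as deposited, vertical axis from 0) in each of 26 lenses by group, with a line at the group median. The cataract groups sit higher and spread more widely in RPKM, and only the short N-myristoyltransferase contig separates the groups fully in both ploidies.

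Complete separation by RPKM, every cataract lens above every clear lens, was thus seen for 3 of the 4 contigs in diploids. In triploids it was seen for the short N-myristoyltransferase contig and the galectin-3-like contig. Over all 19532 tested unigenes it was seen for 2.64% in diploids and 0.261% in triploids. Since the contigs were chosen on this contrast, nothing is read from these counts. The diploid differences with body weight in the fit were 1.46, 1.33, 0.51 and 1.40, in the order in which the contigs are described above. Because the weights of the diploid groups did not overlap, this fit cannot tell weight and cataract apart.

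The ploidy comparisons asked whether the contigs differ between diploid and triploid lenses of the same state. Clear triploid fish were heavier than clear diploid ones (mean 510 g in 3N- and 256.7 g in 2N-). Ploidy and body weight are therefore partly confounded in the clear lenses. The means of the cataract groups were 595.8 g in 2N+ and 605.6 g in 3N+. None of the 4 passed limma's test at an adjusted p of 0.05 in 3N- against 2N- or in 3N+ against 2N+, where 0.0666% and 0.0102% of all tested unigenes passed in either direction. In clear lenses 0.0563% passed as higher in triploids. Limma voom on the recovered reads called 0 in both. At an unadjusted p under 0.05 the counts were 0 and 1, where 9.994% and 8.038% of all tested unigenes passed. The 1 was the short N-myristoyltransferase contig, whose level in 3N+ exceeded that in 2N+ by 0.92 ± 0.33 on the log2 scale (95% interval 0.24 to 1.61, limma adjusted p = 0.481). Values of these cataract lenses entered the choice of contigs, which can fix this difference in part, so nothing is read from its interval. Between clear lenses the same contig differed by 0.30 ± 0.36 (95% interval -0.43 to 1.03, limma adjusted p = 0.855).

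For the other 3 contigs the ploidy differences between cataract lenses were 0.21 ± 0.29 for the galectin-3-like contig, -0.18 ± 0.14 for tyrosine phosphatase IVA 1 and 0.027 ± 0.33 for copine-2 (limma adjusted p from 0.764 to 0.987). Their 95% intervals ran from -0.38 to 0.81, from -0.47 to 0.10 and from -0.66 to 0.71. The sign for copine-2 turned to -0.18 with RPKM as deposited, and that for the galectin-3-like contig to -0.050 without 2N+ replicate 4. Between clear lenses they were -0.23 ± 0.31, 0.20 ± 0.15 and 0.33 ± 0.36 (limma adjusted p from 0.736 to 0.876), of which the first turned to 0.13 with body weight in the fit.

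By group median, the short N-myristoyltransferase contig ran in the order 2N-, 3N-, 2N+ and 3N+, the galectin-3-like contig 3N-, 2N-, 3N+ and 2N+, and both other contigs 2N-, 3N-, 3N+ and 2N+. In each of these orders the ranges of the first pair of groups overlapped, and so did the ranges of the last pair. The difference between the triploid and the diploid cataract difference was 0.44 ± 0.42 for the galectin-3-like contig and -0.31 ± 0.49 for copine-2, which did not pass (limma adjusted p = 0.942 and 0.984). With body weight in the fit the first was 0.067, and with a library left out they ran from 0.18 to 0.67 and from -0.50 to -0.088. Of all tested unigenes 0.00512% passed this test. The cataract differences that it compares entered the choice of contigs, which can fix it in part, so nothing is read from its outcome. For the short N-myristoyltransferase contig and tyrosine phosphatase IVA 1 the difference was 0.62 ± 0.49 and -0.38 ± 0.21, given without a test because the choice of contigs fixes it in part.

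**Figure D2:**
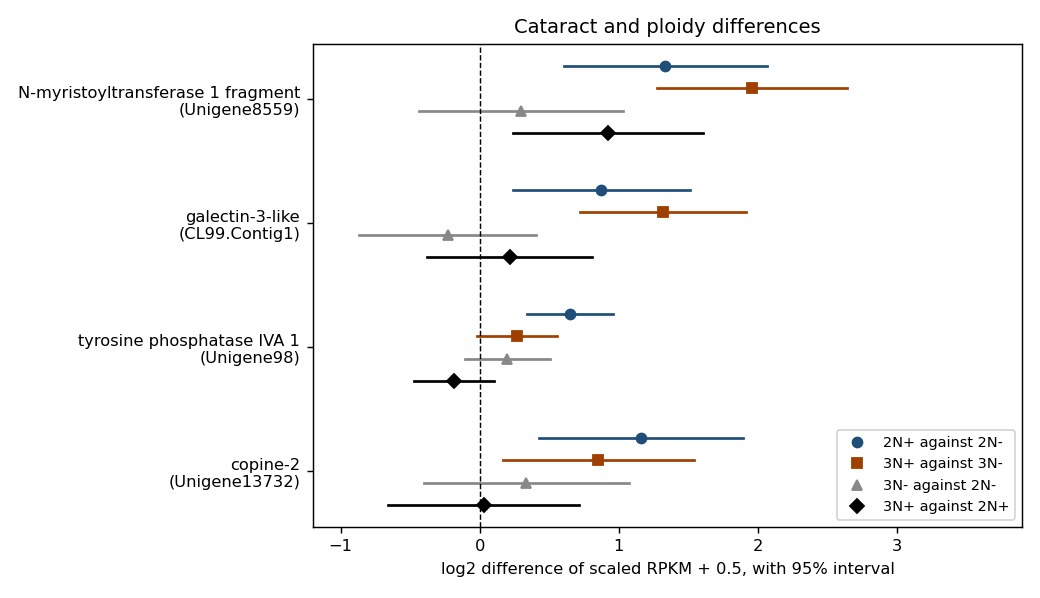
Log2 differences of the scaled RPKM plus 0.5 (horizontal axis) with 95% intervals for the 4 contigs, in the 2 cataract comparisons and the 2 ploidy comparisons. The cataract differences are descriptions of the values that chose the contigs. The ploidy intervals cross 0 except for the short N-myristoyltransferase contig in 3N+ against 2N+, which did not pass after adjustment. That comparison uses cataract lenses whose values entered the choice of contigs.

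For body weight within groups, 0% of all tested unigenes passed, and nothing is read from the count of the 4. Per doubling of weight they were -0.10 ± 0.25 for the short N-myristoyltransferase contig, -0.36 ± 0.20 for the galectin-3-like contig (95% interval -0.78 to 0.060), 0.11 ± 0.10 for tyrosine phosphatase IVA 1 and -0.19 ± 0.25 for copine-2. Limma called 0 of the 4 (lowest adjusted p = 0.849) and limma voom called 0. At an unadjusted p under 0.05 the count was 0, where 6.338% of all tested unigenes passed.

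Ictacalcin (Unigene4061) spanned a far wider range than the 4 contigs. It was 2.25, 4.98 and 20.03 RPKM (minimum, median and maximum) in 2N- and 5.95, 104.5 and 1024 RPKM in 2N+. It was 2.20, 5.17 and 22.4 RPKM in 3N- and 10.2, 206 and 1452 RPKM in 3N+. In each ploidy 1 cataract lens, 2N+ replicate 4 and 3N+ replicate 5, lay within the clear range.

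Among the 14 cataract lenses the galectin-3-like contig and copine-2 were higher where ictacalcin was higher. The share of all tested unigenes that vary this closely with ictacalcin is not given here. These relations are therefore not read as particular to the 2 contigs. For the galectin-3-like contig Pearson's r of the log2 values was 0.85 (permutation p = 0.0001, adjusted p = 0.0008 over 8 relations) and Spearman's rho was 0.78 (permutation p = 0.00168, adjusted p = 0.0134). For copine-2 r was 0.80 (permutation p = 0.00067, adjusted p = 0.00268) and rho was 0.71 (permutation p = 0.006, adjusted p = 0.024). The lenses with the most ictacalcin, 3N+ replicate 6 (1452 RPKM), 2N+ replicate 5 (1024 RPKM) and 3N+ replicate 1 (795.9 RPKM), were also the highest of all 26 for the galectin-3-like contig, at 14.0, 18.2 and 16.9 RPKM. Without the 2 lenses farthest from the median of ictacalcin, 3N+ replicate 6 and 2N+ replicate 4, r was 0.78 and 0.79 (permutation adjusted p = 0.0068 for each).

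The other pair of contigs did not pass in the cataract lenses. Tyrosine phosphatase IVA 1 had an r of 0.57 (permutation p = 0.03, adjusted p = 0.06) and a rho of 0.48 (permutation p = 0.0869, adjusted p = 0.174). This relation passed once 3N+ replicate 6 was left out (r 0.71, permutation adjusted p = 0.0167) or 2N+ replicate 4 (r 0.62, permutation adjusted p = 0.0455), and without both r was 0.77 (permutation adjusted p = 0.0068). It also passed after removing the ploidy means (r 0.65, permutation adjusted p = 0.0209). With RPKM as deposited it did not pass (r 0.51, permutation adjusted p = 0.117), nor did 12 of the 14 values with a library left out. The short N-myristoyltransferase contig had an r of 0.42 (permutation p = 0.133, adjusted p = 0.212) and a rho of 0.28 (permutation p = 0.335, adjusted p = 0.447), and an r of 0.37 (permutation adjusted p = 0.312) without the 2 farthest lenses.

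Clear and cataract relations were not tested against each other. Among the 12 clear lenses, tyrosine phosphatase IVA 1 was lower where ictacalcin was higher, with an r of -0.68 (permutation p = 0.0148, adjusted p = 0.0394) and a rho of -0.64 (permutation p = 0.0303, adjusted p = 0.0809). This relation rests on the scaling and on single lenses. With RPKM as deposited r was 0.020, after connexin 43 it was -0.44 (permutation adjusted p = 0.251), and without 3N- replicate 1 and 2N- replicate 5 it was -0.63 (permutation adjusted p = 0.099). Leaving out 2N- replicate 2 or 3, or 3N- replicate 1, 3, 5 or 6, ended the call as well, at r from -0.68 to -0.61. The galectin-3-like contig (r 0.27, rho 0.44), copine-2 (r -0.34, rho -0.23) and the short N-myristoyltransferase contig (r 0.075, rho 0.021) did not pass, with permutation adjusted p from 0.37 to 0.817 for r and from 0.245 to 0.955 for rho. Without the same 2 lenses their r was 0.59, -0.085 and 0.13, and with RPKM as deposited that of the galectin-3-like contig was 0.60 (permutation adjusted p = 0.108).

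Split by group, none of 16 relations passed after adjustment over the 16, and the smallest exact permutation adjusted p was 0.0958. The galectin-3-like contig had an r of 0.90 in 2N+ (exact p = 0.0431, adjusted p = 0.115) and 0.83 in 3N+ (exact p = 0.0119, adjusted p = 0.0958), with rho 0.49 and 0.88. Copine-2 had 0.81 (exact p = 0.0514, adjusted p = 0.117) and 0.80 (exact p = 0.024, adjusted p = 0.0958). The short N-myristoyltransferase contig had -0.43 in 2N+ (exact p = 0.386, adjusted p = 0.475) and 0.87 in 3N+ (exact p = 0.0149, adjusted p = 0.0958), and the difference between these was not tested. In clear lenses it had -0.49 in 2N- (exact p = 0.3125, adjusted p = 0.417) and 0.83 in 3N- (exact p = 0.0417, adjusted p = 0.115). Tyrosine phosphatase IVA 1 had -0.61 in 2N-, 0.75 in 2N+ and 0.60 in 3N+. In 3N- it had -0.93 (exact p = 0.0208, adjusted p = 0.0958).

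**Figure D3:**
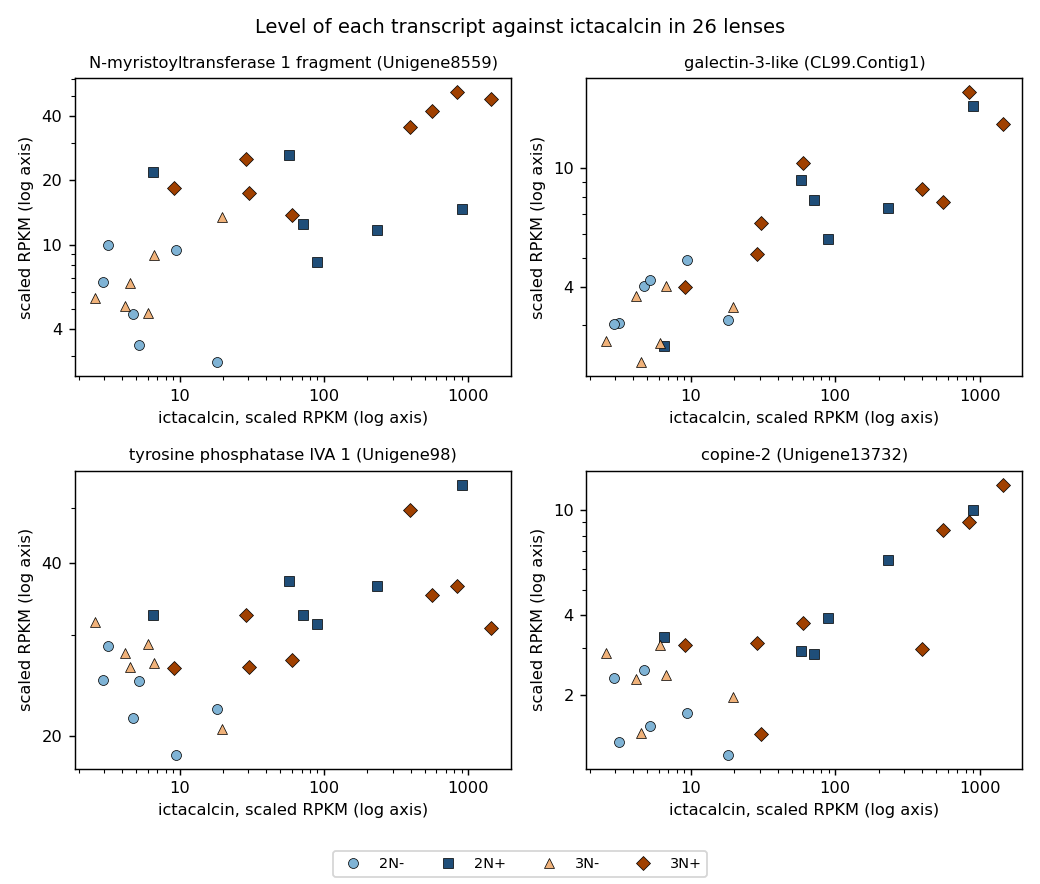
Level of each contig (vertical axis) against ictacalcin (horizontal axis), both as scaled RPKM on log axes, in 26 lenses marked by group. The galectin-3-like contig and copine-2 climb with ictacalcin among the cataract lenses (r 0.85 and 0.80). For the short N-myristoyltransferase contig r was 0.87 among the 3N+ and -0.43 among the 2N+ lenses, neither of which passed after adjustment and whose difference was not tested.

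Markers of surface epithelium are given beside these relations because a sum of keratins was highest in the same lenses as ictacalcin. Summed RPKM of 16 unigenes named for surface epithelium proteins ran from 147 to 220 in 2N-, 143 to 485 in 2N+, 139 to 211 in 3N- and 168 to 951 in 3N+, and limma called 0 of the 14 tested ones in any cataract contrast (0, 6 and 5 at an unadjusted p under 0.05 in diploids, triploids and the average, and 0 by limma voom). At that unadjusted threshold 12.48%, 8.944% and 14.53% of all tested unigenes passed, and limma called 1.38%, 0.087% and 2.65% after adjustment. The list's median log2 difference was -0.0030 in diploids, with 7 above and 7 below 0, and 0.19 in triploids, with 12 above and 2 below. The most abundant of the list, a KRT222-like keratin contig (Unigene8578), averaged 73.1 and 72.9 RPKM in clear and cataract diploid lenses and 65.8 and 73.7 RPKM in triploid ones. Its average log2 difference was -0.099 ± 0.11 (limma adjusted p = 0.785), and it is not in the keratin subset that follows. Within that list, the 8 type I and II keratins, a subset taken after values were seen, had summed medians of 67.97 and 119.1 RPKM in clear and cataract diploid lenses and of 52.2 and 152.2 RPKM in clear and cataract triploid lenses. Their sums reached at most 76.3 RPKM in 2N-, 331.7 RPKM in 2N+, 81.4 RPKM in 3N- and 801.6 RPKM in 3N+. Their highest sums were in 3N+ replicate 6 (801.6), 3N+ replicate 1 (399) and 2N+ replicate 5 (331.7), the same lenses that were highest for ictacalcin and the galectin-3-like contig. The part of keratin-bearing cells in these relations was not tested.

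Of 79 tested markers of lens fibre cells limma called 7 lower in diploids and 11 lower on average, against 1.1% and 1.84% of all tested unigenes. Limma voom called 13 and 12. At an unadjusted p under 0.05 the counts were 47 and 39, where 12.48% and 14.53% of all tested unigenes passed. Differences lay below 0 for 70 in diploids, 54 in triploids and 74 on average, and above 0 for 9, 25 and 5. In triploids limma and limma voom called 0, and 6 had an unadjusted p under 0.05, where 8.944% of all tested unigenes did. The part of fibre cells in the differences of the 4 contigs was not tested. Summed haemoglobin of 4 unigenes ran from 4.78 to 95.7 RPKM in 2N-, 16.6 to 1374 in 2N+, 6.97 to 2028 in 3N- and 7.89 to 691.3 in 3N+. All 4 had log2 differences above 0 with cataract in both ploidies (median 2.07 and 1.78), and limma and limma voom called 0. Mean RPKM ran the other way in triploids for Unigene8162, Unigene8142 and Unigene8070. It was 117, 81.1 and 80.0 in 3N- and 82.7, 54.1 and 51.4 in 3N+. The highest clear sum, 2028 RPKM, was that of 3N- replicate 5. In the average contrast 2 had an unadjusted p under 0.05, where 14.53% of all tested unigenes did. Muscle and vessel markers, 11 unigenes, summed to 67.6 to 126.4 RPKM and 124.5 to 173.7 RPKM in clear and cataract diploid lenses and to 68.9 to 110.3 RPKM and 88.2 to 184.2 RPKM in triploid ones. Of 8 tested ones 8 had average differences above 0, and limma and limma voom called 0. At an unadjusted p under 0.05 the count was 3, beside the same 14.53% of all tested unigenes. Retina markers, 24 unigenes, summed to at most 240.3 RPKM in 2N-, 3526 RPKM in 2N+, 2153 RPKM in 3N- and 543.6 RPKM in 3N+, with 0 of 12 called by limma (0 at an unadjusted p under 0.05, and 0 by limma voom). In diploids, triploids and the average limma called 1.38%, 0.087% and 2.65% of all tested unigenes, and 12.48%, 8.944% and 14.53% passed unadjusted. Nothing is read from the counts of 0 in these lists. The part of blood, muscle, vessel and retina cells in the results was not tested. The leukocyte list had 4 unigenes, none abundant enough to be tested, summing to at most 2.91 RPKM in any lens, and the MHC class II beta chain and gamma chain had 0 reads in 25 of the 26 libraries each. Of 11 tested unigenes listed as markers of lens epithelium limma and limma voom called 0. The wording also took in a protocadherin-1-like contig. At an unadjusted p under 0.05 the diploid, triploid and average counts were 2, 3 and 6, beside 12.48%, 8.944% and 14.53% of all tested unigenes. On average 6 differences lay above 0 and 5 below, with cadherin-2 (CL1218.Contig1 and CL1218.Contig2) at 0.17 ± 0.075 and 0.25 ± 0.073. Summed median RPKM was 238.5 in 2N-, 314.1 in 2N+, 222.8 in 3N- and 233.7 in 3N+. The sum was still 176.9 RPKM in 3N- replicate 3, where connexin 43 was 0.42 RPKM. It is therefore not read as a measure of epithelium. Connexin 43 (CL2590.Contig1), the gap junction protein of the lens epithelium, had an average difference of -0.096 ± 0.90 and ran from 0.42 to 109.5 RPKM. It fell into a high and a low class in both states. Of the clear lenses 7 had at least 45.8 RPKM of connexin 43 and 5 at most 2.73 RPKM. Of the cataract lenses 7 had at least 23.7 RPKM of connexin 43 and 7 at most 7.89 RPKM. Over all 26 lenses its residuals from the group means had an r of -0.46 with tyrosine phosphatase IVA 1, -0.26 with the short N-myristoyltransferase contig, 0.18 with the galectin-3-like contig and 0.080 with copine-2, as a description. With connexin 43 in the fit the diploid cataract differences of the 4 were 1.32, 0.88, 0.64 and 1.17, and the relations of the galectin-3-like contig and copine-2 with ictacalcin in cataract lenses had an r of 0.85 and 0.81.

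Among themselves the 4 contigs were loosely related. Residuals from group means over the 26 lenses gave an r of 0.57 for the galectin-3-like contig with copine-2, and the other 5 pairs lay between 0.18 and 0.36. These values are descriptions and share libraries and scaling.

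Of unigenes that carry the family names of the 4, another 9 were abundant enough to be tested and 3 were not. Limma called 0 of the 9 in the diploid or in the triploid cataract comparison (5 and 2 at an unadjusted p under 0.05, and 0 by limma voom), where 1.38% and 0.087% of all tested unigenes were called (12.48% and 8.944% at the unadjusted threshold), and 2 of the 9 in the average of both comparisons, where the share was 2.65%. The 2 were CL533.Contig2 and the copine-2-like Unigene10915.

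CL533.Contig2, the long N-myristoyltransferase 1 contig, was lower with cataract, opposite in direction to the short contig of that name. It was 49.9, 68 and 79.5 RPKM (minimum, median and maximum) in 2N- and 33.5, 50.0 and 73.0 RPKM in 2N+. It was 73.5, 74.7 and 86.0 RPKM in 3N- and 48.6, 55.0 and 64.5 RPKM in 3N+. All 8 triploid cataract lenses lay below all clear ones, as did 3 of 6 diploid ones, where 0.266% and 0.435% of tested unigenes had every cataract lens below every clear lens. The average log2 difference on the scaled values was -0.61 ± 0.17 (limma adjusted p = 0.0427), with -0.72 ± 0.24 in diploids (adjusted p = 0.157) and -0.51 ± 0.23 in triploids (adjusted p = 0.502). The call is close to the threshold. It was lost when the TMM factors were computed over all unigenes (-0.60, limma adjusted p = 0.0581), a setting that was run and seen before the one used here was adopted. It was lost as well when any of 18 of the 26 libraries was left out, and stayed without 2N- replicate 5, 2N+ replicate 1 or 4, 3N- replicate 1 or 6, or 3N+ replicate 1, 2 or 4 (limma adjusted p from 0.00851 to 0.0872 over the 26).

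The ratio of the short to the long contig, in RPKM, had a median of 0.0717 in 2N-, 0.337 in 2N+, 0.0779 in 3N- and 0.504 in 3N+. The highest clear ratios were 0.132 and 0.205 and the lowest cataract ratios 0.275 and 0.278 in diploids and triploids, so that the groups did not overlap. The ratio uses the contig that was chosen and is a description. Within groups the short and the long contig varied in the same direction (r of residuals 0.58), and CL533.Contig1 had an average log2 difference of -0.0080 ± 0.11 (limma adjusted p = 0.988), a sign that turned with RPKM as deposited (0.15).

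**Figure D4:**
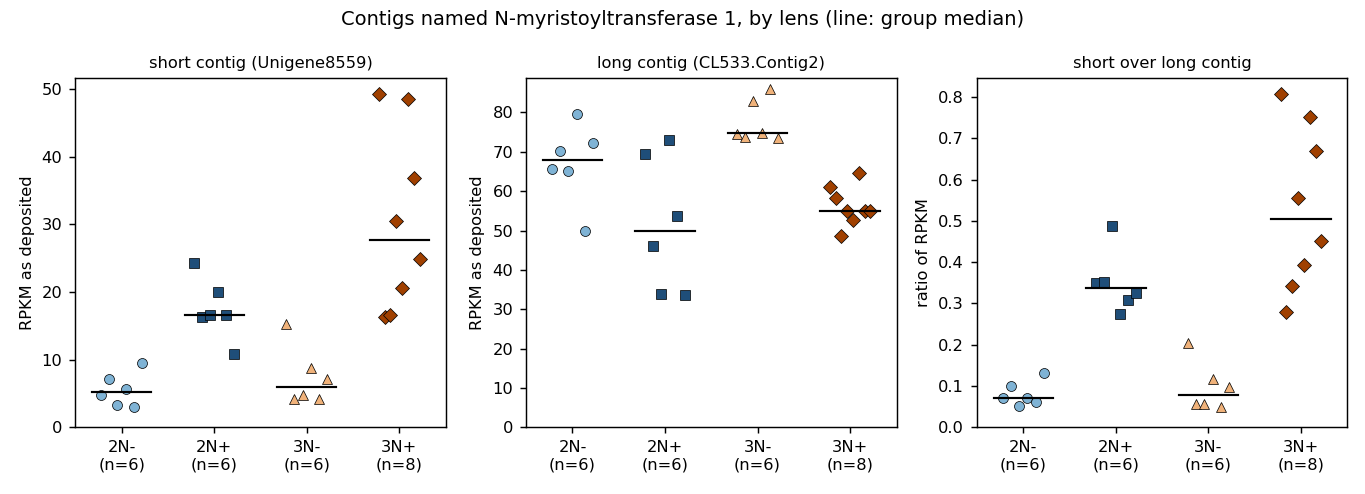
RPKM of the short (Unigene8559) and the long (CL533.Contig2) contig named N-myristoyltransferase 1 and their ratio, per lens and group, with a line at the group median and axes from 0. The short contig is higher and the long one lower in cataract lenses, and the ratio has medians of 0.0717, 0.337, 0.0779 and 0.504 in the 4 groups.

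The copine-2-like Unigene10915 (890 bases) moved as the copine-2 contig did. It was 2.06, 2.67 and 4.50 RPKM in 2N- and 3.67, 5.66 and 15.1 RPKM in 2N+. It was 2.52, 2.94 and 3.46 RPKM in 3N- and 2.80, 5.08 and 18.2 RPKM in 3N+. Of the cataract lenses 4 of 6 and 6 of 8 were above all clear ones. The average log2 difference was 0.88 ± 0.24 (limma adjusted p = 0.0398), and this call also lies at the threshold: it stayed in 11 of the 26 fits that left out a library, those without 2N- replicate 1, 2N+ replicate 1, 2, 4 or 6, or 3N+ replicate 2, 3, 4, 5, 6 or 8 (limma adjusted p from 0.0189 to 0.0816 over the 26). Its residuals had an r of 0.89 with copine-2, the highest of 6963 candidates. Whether the 2 contigs are pieces of 1 transcript was not tested. Copine-1 (CL3136.Contig1) had an average difference of 0.015 ± 0.076 (limma adjusted p = 0.969), which turned to -0.038 with body weight in the fit.

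The galectin-3 contigs differed among themselves. The second galectin-3-like contig, Unigene7489, averaged 10.6 ± 3.11 RPKM (SD, n = 6) in clear and 17.4 ± 4.59 RPKM in cataract lenses of diploids. In triploids the means were 11.1 ± 1.503 RPKM (n = 6) and 13.9 ± 4.13 RPKM (n = 8). It had an average log2 difference of 0.32 ± 0.11 that did not pass (limma adjusted p = 0.121) except with RPKM as deposited (0.48, adjusted p = 0.0353). Unigene3009, named for salmon Galectin-3, had -0.31 ± 0.21 (limma adjusted p = 0.556) and Unigene3010 of the same name had -0.24 ± 0.20 (limma adjusted p = 0.675). The residuals of CL99.Contig1 had an r of 0.70 with Unigene7489, 0.40 with Unigene3009 and 0.32 with Unigene3010.

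Of the contigs named tyrosine phosphatase type IVA 2, CL3377.Contig1 averaged 9.09 ± 0.963 RPKM (SD, n = 6) in clear and 14.3 ± 2.63 RPKM in cataract lenses of diploids. In triploids the means were 9.47 ± 2.31 RPKM (n = 6) and 11.4 ± 2.72 RPKM (n = 8). Its average log2 difference of 0.27 ± 0.11 did not pass (limma adjusted p = 0.224), and with RPKM as deposited it was 0.43 (limma adjusted p = 0.0165). Unigene9172 had -0.032 ± 0.080 (limma adjusted p = 0.93), and 0.13 with RPKM as deposited.

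The 8 lists of related proteins, drawn by wording of the protein names, held 82 tested unigenes outside the 4 contigs and ictacalcin. Limma called 4 of the 82 in the average cataract contrast, 3 higher and 1 lower, against 0.814% higher and 1.84% lower among all tested unigenes. Among the 3 higher was a second ictacalcin contig that passed the filter on low values only through cataract lenses, and without it 2 of 81 were called higher. The count of 4 ranged from 1 to 13 over the other settings and from 1 to 6 with a library left out. The 1 lower was CL533.Contig2, and the 3 higher were the copine-2-like contig, an ADP-ribosylation factor 1-like contig (CL2165.Contig2) and a second ictacalcin contig (Unigene9373). In diploids alone limma called 1 of the 82, a lower one, where 1.1% of all tested unigenes passed as lower. In triploids alone it called 0, where 0.0461% passed as higher and 0.041% as lower, and limma voom called 0. At an unadjusted p under 0.05 the triploid count was 12, where 8.944% of all tested unigenes passed.

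In the list of myristoylated proteins, of which the wording also took in other G protein subunits, 1 of 36 was called in the average contrast. The share over all tested unigenes was 2.65%, and nothing is read from the count. ADP-ribosylation factor 1 is a GTPase of vesicle traffic that is myristoylated. The contig named as like it (CL2165.Contig2) averaged 13.9 ± 2.65 RPKM (SD, n = 6) in clear and 23.2 ± 4.6 RPKM in cataract lenses of diploids. In triploids the means were 13.8 ± 1.18 RPKM (n = 6) and 18.4 ± 3.15 RPKM (n = 8), and the average log2 difference was 0.39 ± 0.078 (limma adjusted p = 0.00525). The list had a median of 0.11 against 0.0072 over all tested unigenes, with 30 of 36 above 0. By ploidy the median was 0.18 in diploids, with 28 above and 8 below 0, and 0.0032 in triploids, with 19 above and 17 below. The most abundant of the list, 2 MARCKS-related contigs, had differences of 0.024 ± 0.096 and 0.13 ± 0.077 and did not pass. Among 6 unigenes of the myristoylation machinery 1 was called, beside the same 2.65% of all tested unigenes. Both methionine aminopeptidase 2 contigs, of the enzyme that exposes the glycine, had -0.060 ± 0.086 and -0.12 ± 0.085.

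At an unadjusted p under 0.05, 2 of the 5 other galectins passed in the average contrast, where 14.53% of all tested unigenes did. None of the 5 passed after adjustment, and limma voom called 0. The most abundant, galectin-2-like Unigene8206, averaged 708 ± 46.3 RPKM (SD, n = 6) in 2N- and 727 ± 39.3 in 2N+. It averaged 624.8 ± 34.4 RPKM in 3N- and 576.4 ± 133.7 RPKM in 3N+. On the scaled values its average log2 difference was -0.225 ± 0.096 (limma adjusted p = 0.252). The list of galectin ligands and glycan branching, into which the wording put integrin-binding proteins, held 17 tested unigenes. Limma called 1 of them in diploids, where 1.1% of all tested unigenes were called lower. It was an N-acetylglucosaminyltransferase of glycan branching (Unigene9981), at 5.74 ± 0.767 RPKM (n = 6) in 2N- and 3.42 ± 0.842 in 2N+ (log2 -0.94 ± 0.22, limma adjusted p = 0.0293). In triploids its difference was -0.065 ± 0.21 (limma adjusted p = 0.977), and the difference between the ploidies, 0.88 ± 0.31, did not pass (limma adjusted p = 0.676). Of 6 partners of the type IVA phosphatases, CNNM proteins and prenylation enzymes, limma and limma voom called 0 in the average contrast. At an unadjusted p under 0.05 the count was 2, where 14.53% of all tested unigenes passed.

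The list of S100 proteins and annexin partners held a second ictacalcin contig, Unigene9373, which averaged 0.062 ± 0.152 RPKM (SD, n = 6) in clear and 15.6 ± 23.5 RPKM in cataract lenses of diploids. In triploids the means were 0.249 ± 0.284 RPKM (n = 6) and 24.7 ± 32.9 RPKM (n = 8). None of the 12 clear lenses had enough reads of it to meet the filter on low values (at most 4 reads) and 8 of the 14 cataract lenses did, so that it was tested only through the lenses in which it was high and its call is not read as a result. No other contig of this list was called by limma. An S100-A1 contig (Unigene3929) averaged 16.8 ± 6.99 RPKM in 2N- and 71.5 ± 69.6 in 2N+ and did not pass (average log2 1.40 ± 0.39, limma adjusted p = 0.0561).

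The contigs whose variation within groups was most like that of each of the 4 were taken from 6963 named unigenes, by the correlation of residuals from group means over 26 lenses. For the galectin-3-like contig they were SJCHGC02514 protein (r 0.86), cytoplasmic cysteinyl-tRNA synthetase (0.85), a DENN domain-containing protein 2D-like contig (0.82), ictacalcin itself (0.79) and MEX3A (0.77). For copine-2 they were the copine-2-like contig (0.89), latrophilin-3-like (0.87), annexin A1 (0.87), S100-A1 (0.85) and Wolf-Hirschhorn syndrome candidate 2 (0.83), with ictacalcin at rank 79.

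For tyrosine phosphatase IVA 1 the most alike were uridine-cytidine kinase 2 (0.89), an unnamed protein product (0.85), a TSC22 domain family protein 1-like contig (0.85), cofilin-2 (0.83) and protein phosphatase methylesterase 1 (0.82). For the short N-myristoyltransferase contig they were an uncharacterised protein (0.86), an AP-2 complex subunit sigma-like contig (0.76), 2 tubulin beta contigs (0.75 each) and a hypothetical protein (0.73). Ictacalcin had rank 1538 and rank 1237 for these contigs. Over the 20 contigs named as most alike to the 4, the lowest limma adjusted p in the cataract comparison of either ploidy was 0.0788. The 20 include ictacalcin, itself chosen as higher with cataract, and the copine-2-like contig, which passed in the average contrast as given above. That contrast was not summarised over the 20.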

How the data were processed

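The authors deposited 1 table of RPKM values (reads scaled to contig length and library size) for 26681 unigenes in 26 lens libraries, of single-end reads of 50 bases per the labels. The assembler and aligner were not given in the sources used here, and names are the best protein hits in the table. The 4 contigs and the lists were chosen with earlier results of these data known.

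Whole reads were recovered from the RPKM values for 100% of unigenes within 0.01 reads, and the median of 14 reads in a library limits precision for low unigenes. RPKM being no count, limma 3.58.1 (R 4.3.3; empirical Bayes with trend, robust) was fitted to log2(scaled RPKM + 0.5) with 4 group means. TMM factors (trims 0.3 and 0.05) were first computed over all unigenes; after the results had been seen they were recomputed over the filtered unigenes, which moved CL533.Contig2 past the threshold. Unigenes needed at least 10 reads, at the median library size, in at least 6 libraries and at least 15 reads in all, which left 19532. P-values were two-sided, with Benjamini-Hochberg adjustment over all 19532.

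Correlations used log2 scaled values, with permutation tests (100000 draws, exact within groups, Python 3.11.15, numpy 2.4.6). Scripts were tested on simulated data. Named genes were the 4 contigs and ictacalcin, tested unigenes of the same family names, the 3 most abundant and any called in each list, and the 5 most alike; the report prints those of the lists in part. Libraries of a group differed by more than sampling noise (chi-square per degree of freedom at least 3.05). The labels name each library as a separate fish. Alternatives were other scalings, pseudocounts, filters, limma voom, covariates, a replicate block and leaving out each library.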

Additional observations from a re-analysis of the deposited data

Results flagged for a closer look

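In 20 sets of values (the 4 contigs and ictacalcin in 4 groups) the highest or lowest lens was compared with its nearest neighbour, and 2 lenses stood far from the others. The nominal rate at which the critical values used mark a set by chance is about 1 in 20, which was not checked for skewed values such as these. Ictacalcin was 1024 RPKM in 2N+ replicate 5, where the next lens had 329.1 RPKM. The same lens had the highest values of its group for the galectin-3-like contig (18.2 RPKM), tyrosine phosphatase IVA 1 (62.1 RPKM) and copine-2 (11.4 RPKM), but not for the short N-myristoyltransferase contig (16.6 RPKM). Ictacalcin was 22.4 RPKM in 3N- replicate 1, where the next lens had 6.57 RPKM. That lens was also the highest clear lens for the short N-myristoyltransferase contig (15.3 RPKM), and without it the relation of that contig with ictacalcin among clear lenses turned to an r of -0.36.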

How the results depend on the processing

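Of 288 values for the 4 contigs under settings other than leaving out a library, 274 kept their direction and side of the threshold or, untested, moved by less than the spread. Of 728 with a library left out, 709 did. Leaving out a library of a group outside a comparison cannot move that group difference. Dropping the filter or fitting only the groups compared also returns the same difference. Nothing is read from the size of these counts. With RPKM as deposited, tyrosine phosphatase IVA 1 in diploids moved to 0.94, copine-2 in 3N+ against 2N+ reversed to -0.18 (also -0.0087 with limma voom and -0.033 with the replicate block), and the ictacalcin relations in clear lenses turned to 0.020 for tyrosine phosphatase IVA 1 and 0.0094 for copine-2. With body weight the galectin-3-like contig in 3N- against 2N- turned to 0.13. In clear lenses, after connexin 43, r was -0.047 for the galectin-3-like contig and -0.44 for tyrosine phosphatase IVA 1, which was -0.63 without the 2 farthest lenses. In cataract lenses its r passed at 0.65 (ploidy means removed), 0.61 (connexin 43), 0.61 (body weight) and 0.77 (without the 2 farthest). It did not pass with RPKM as deposited (r 0.51, permutation adjusted p = 0.117). The cause was not tested for any of these.

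With a library left out, the differences between 3N+ and 2N+ ran from -0.050 to 0.44 for the galectin-3-like contig (below 0 without 2N+ replicate 4) and from -0.17 to 0.25 for copine-2 (below 0 without 2N+ replicate 1, 2, 4 or 6, or 3N+ replicate 1, 6 or 7), and the weight slope of the short N-myristoyltransferase contig from -0.22 to 0.078 (above 0 without 2N- replicate 6 or 3N+ replicate 1). Its r with ictacalcin in clear lenses ran from -0.36 to 0.52. That of tyrosine phosphatase IVA 1 ran from -0.75 to -0.61 in clear and from 0.49 to 0.71 in cataract lenses.

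The count of listed unigenes called was 13 with RPKM as deposited, 1 with body weight, 7 with connexin 43, 2 with limma voom and 1 with the replicate block, and 1 to 6 with a library left out (1 without 2N+ replicate 3, and 2 without 2N- replicate 2, 4 or 6, 2N+ replicate 5, or 3N- replicate 2, 3, 4 or 5). Over all unigenes the diploid cataract count of 269 ran from 43 to 1315 (103 to 486 with a library left out), the triploid count of 17 from 4 to 115 (5 to 43), the average count of 518 from 246 to 1432 (350 to 653), the clear ploidy count of 13 from 0 to 83 (3 to 72), the cataract ploidy count of 2 from 0 to 10 (0 to 15), the interaction count of 1 from 0 to 2 (0 to 1) and the weight count of 0 from 0 to 8 (0 to 24).

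Alternatives were run for all 9 same-named contigs. The CL533.Contig2 average call was lost with TMM over all unigenes (-0.60), the replicate block (-0.62) and body weight (-0.69), and its diploid difference passed with connexin 43 (-0.75). The Unigene10915 call was lost with limma voom (0.95), the block (0.86) and body weight (0.97). Signs turned for values near 0: Unigene3009 in triploids to 0.0055 (RPKM as deposited) and 0.038 (body weight), copine-1 (CL3136.Contig1) in diploids to -0.041 (body weight), in triploids to 0.024 (as deposited) and on average to -0.013 (replicate block) and -0.038 (body weight), CL533.Contig1 in diploids to 0.16 and on average to 0.15 (as deposited) and 0.00034 (TMM over all unigenes), and Unigene9172 to 0.26, 0.0043 and 0.13 in diploids, triploids and on average (as deposited). With a library left out, these ran from -0.21 to 0.15 for Unigene3009 in triploids; for copine-1 from -0.0080 to 0.10, -0.051 to 0.024 and -0.013 to 0.042 in diploids, triploids and on average; for CL533.Contig1 from -0.22 to 0.023 in diploids and -0.060 to 0.060 on average; and for Unigene9172 from -0.073 to 0.056 in diploids and -0.055 to 0.0087 on average.

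Replicate numbers were not read as pairs: 18 of 36 same-numbered pairs of libraries had residual correlations over 0.1, from -0.50 to 0.52, and 3 of 26 libraries were closest to their own number.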
